A study of Mus musculus with 24 samples.

Results

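Mitochondrial ribosomal proteins are the nuclear-encoded protein components of the ribosome inside mitochondria, and their genes were taken as all rows with a symbol of the form Mrps or Mrpl followed by a number, without symbols ending in -ps. This gave 78 genes of 18474 rows in the table of blood and liver libraries, 29 with a small subunit symbol and 49 with a large subunit symbol. The table of antibody libraries held 77 of them among 22505 rows, since Mrpl53 was listed in the first table only. Of these, 77 and 76 passed the filter on low counts; Mrpl23 was left out of the first table and Mrps36 out of the second.

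The mitochondrial ribosome translates the messenger RNAs of the mitochondrial genome, which encode core subunits of the respiratory chain and ATP synthase. Its small subunit holds the messenger RNA and its large subunit joins the amino acids and passes the new chain towards the inner membrane. Some of its proteins have bacterial counterparts and others occur only in mitochondria. Mature neutrophils are known for relying mainly on glycolysis and for keeping few mitochondria, with ribosome production falling during their maturation.

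RNA was sequenced from cells labelled as neutrophils of NOD.c3c4 mice, a strain with autoimmune bile duct disease that is used as a model of primary biliary cholangitis. The first table held blood neutrophils of untreated mice (n = 3), liver neutrophils of untreated mice (n = 2), and blood (n = 2) and liver neutrophils (n = 2) of mice given 10 intravenous doses of nanoparticles coated with PDC166. The second held liver neutrophils of mice given the same nanoparticles together with an antibody. There were 3 libraries each with the isotype control, with anti-GCF and with anti-IL21R, and 2 each with anti-TGFb, with anti-IL35 and with anti-IL10, spelled as in the labels. The labels do not say that replicates came from separate mice, so p-values measure only the spread between these libraries, which may be technical. The age of the mice and the way the neutrophils were isolated are not given in the sources used here. The treated and untreated libraries of the first table carry library numbers from separate ranges, so treatment cannot be told apart from any difference that goes with those ranges.

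Libraries held 34.7 to 46.4 M counts in the first table and 23.6 to 47.5 M in the second, of which the mitochondrial ribosomal protein genes took 0.0783% to 0.409% and 0.0600% to 0.149%. Levels are CPM, counts scaled to the size of the library, after TMM adjustment between libraries. A list of 20 neutrophil genes was detected in full in all groups, but its summed level was 34840 and 36907 CPM in the libraries of untreated liver, against 99130 to 295681 CPM in the other libraries of that table. The untreated liver libraries also held 15427 and 21128 CPM of 16 hepatocyte genes (the list of 17 without Hp), against 269 to 548 CPM elsewhere in the table, and Alb, the gene of serum albumin, reached 4861 and 5577 CPM there and 0.0820 to 30.2 CPM elsewhere. The anti-GCF libraries stood apart in the second table, with 23839 to 31270 CPM of the neutrophil genes against 48722 to 206181 CPM in the other groups, and with 6073 to 11065 CPM of 12 Kupffer cell and macrophage genes against 161 to 2501 CPM. Of the untreated blood libraries, replicate 3 had 295681 CPM of the neutrophil genes and replicates 1 and 2 had 124989 and 151089 CPM. In bulk samples, fewer cells of a type and less RNA per cell cannot be told apart.

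The bases just before a RefSeq start of 4 of the genes are printed here because their RNAs marked the ends of the range described below. Mrpl33 rose in treated against untreated liver, where most members fell. Mrps21 was at a like level in untreated blood and untreated liver, and Mrpl12 and Mrps27 were among those with the largest falls in treated liver. Each is the 250 bases before the RefSeq start on the mouse assembly GRCm38.p6, from 5′ to 3′ on the strand of the gene, at chr5:31613701-31613950 (+), chr3:95871515-95871764 (−), chr11:120484387-120484636 (+) and chr13:99344536-99344785 (+). Capitals mark matches to the searched motifs: CCAAT in Mrpl33, the 10-letter motif of nuclear respiratory factor 1 in Mrps21 and Mrpl12, and the ETS letters (CCGGAAG) in Mrps27, the last 3 of these matches being on the other strand.
Mrpl33: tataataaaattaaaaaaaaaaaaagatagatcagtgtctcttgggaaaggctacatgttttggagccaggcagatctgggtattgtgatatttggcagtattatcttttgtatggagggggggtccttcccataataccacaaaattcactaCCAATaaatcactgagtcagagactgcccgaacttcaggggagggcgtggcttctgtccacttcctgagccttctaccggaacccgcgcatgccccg
Mrps21: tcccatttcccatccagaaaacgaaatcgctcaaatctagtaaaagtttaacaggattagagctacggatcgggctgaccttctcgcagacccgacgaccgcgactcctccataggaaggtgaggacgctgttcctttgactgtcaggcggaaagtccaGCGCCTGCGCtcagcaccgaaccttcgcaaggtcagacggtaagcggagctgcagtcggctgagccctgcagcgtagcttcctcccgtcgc
Mrpl12: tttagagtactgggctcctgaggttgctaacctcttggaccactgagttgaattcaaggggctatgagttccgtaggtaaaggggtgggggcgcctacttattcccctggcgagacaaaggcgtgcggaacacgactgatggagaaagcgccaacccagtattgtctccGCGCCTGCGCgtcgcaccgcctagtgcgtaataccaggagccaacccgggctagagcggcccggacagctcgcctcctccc
Mrps27: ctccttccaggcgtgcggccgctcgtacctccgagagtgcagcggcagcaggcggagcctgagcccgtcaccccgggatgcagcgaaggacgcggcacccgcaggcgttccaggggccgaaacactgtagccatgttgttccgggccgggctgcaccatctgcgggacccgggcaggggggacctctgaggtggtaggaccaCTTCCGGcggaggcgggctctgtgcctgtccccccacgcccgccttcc

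Nuclear respiratory factor 1 and the ETS family member GABP are transcription factors known for acting on nuclear genes of mitochondrial proteins. Of the members, 69 had 75 promoter windows in the RefSeq table, each from 250 bases before to 50 bases after a start, and both strands were searched. The motif of nuclear respiratory factor 1 was present in 17.3% of these windows, against 6.38% of the windows of all protein-coding genes. CCGGAAG was present in 34.7% against 11.6%, and AANATGGCG, letters of the factor YY1, in 14.7% against 3.12%. CCAAT was present in 30 of the 75 windows and in 38.2% of those of protein-coding genes, the E-box CACGTG in 9.33% and 7.84%, and the 11-letter motif searched for ZNF143 and THAP11 in 0 of 75 windows and in 0.42%. Matches of 2 different motifs overlapped in 0 of the 75 windows. Mrpl33 and Mrps21 had a CCGGAAG match, and Mrps27 an AANATGGCG match, that did not lie wholly in the 250 bases before the start and is not marked above. Mrps2, Mrps5, Mrps6 and Mrpl10 had none of the 6 motifs.

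The genes lay on 17 chromosomes, 11 of them on chromosome 11. Coordinates follow the mm10 build. Mrpl33 lies at 31596935 to 31664384 on the plus strand of chromosome 5, where the annotation (GENCODE M21) gives 1 coding transcript of 0.478 kb inside a gene model with 7326 exonic bases. The RefSeq start used for the printed stretch lies inside this gene model, so that the stretch is not upstream of the model as a whole, and the stretches of Mrps21 and Mrpl12 run a few bases into theirs. The tables do not say which exonic bases the reads came from. Mrpl38 lies at 116131817 to 116138868 on the minus strand of chromosome 11, and Mrpl12 (120484613 to 120489065), Mrpl10 (97041560 to 97049213) and Mrpl45 (97315716 to 97329920) lie on the plus strand of the same chromosome. Exons of 33 members overlap another gene, and whether the counting used strand is not stated. For Mrpl19, Mrpl43 and Mrps18b the overlap with Gcfc2, Twnk and Gm16279 on the opposite strand covers 36.0%, 33.4% and 30.5% of the exonic bases. For Mrpl48 that with the strongly counted Rab6a covers 8.7%. The largest overlaps were those of Mrpl53 (88.0%), Mrps25 (69.8%) and Mrps34 (63.4%). For Mrps6, Gm49711 and Slc5a3 on the same strand cover 19.9% and 10.4%. All these members are reported as uncertain. The row Mrpl48-ps held 328 to 1005 counts per library in the first table, beside 298 to 872 for Mrpl48. In the second it held 22 to 62, beside 167 to 334, so reads of Mrpl48 may have been assigned differently.

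Mrpl33, a small protein of the large subunit with a bacterial counterpart, had the highest level of all members in 9 of the 10 groups. Per kb of the median coding transcript, its mean over the 4 groups of the first table was 434 CPM per kb, followed by Mrps21 at 94.7, Mrpl20 at 57.8, Mrpl10 at 54.5 and Mrpl14 at 51.0 CPM per kb. In the antibody groups the order was Mrpl33 at 231, Mrpl20 at 44.7, Mrpl30 at 37.1, Mrps23 at 30.8 and Mrps21 at 30.5 CPM per kb. Over all exonic bases of its long gene model Mrpl33 had rank 4 in both tables, behind Mrps21, Mrpl10 and Mrpl14 in the first and Mrpl10, Mrpl43 and Mrps21 in the second. Other members were far lower: the median CPM of the small subunit genes was 4.81 in untreated blood and 31.3 in untreated liver, and that of the large subunit genes was 7.70 and 37.9. Mrpl23 was at 0 to 6 counts per library in the first table and 2 to 17 in the second. Its processed pseudogene Mrpl23-ps1, identical over 68.9% of the Mrpl23 transcript, had 87 to 1818 counts in the first table and 0 to 3 in the second, so reads of this gene may have been assigned differently in the 2 tables and its level is not compared.

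The first comparison asks how nanoparticle therapy changed liver neutrophils. In treated liver, mitochondrial ribosomal protein RNA was lower than in untreated liver for nearly every member. The small subunit genes summed to 886 and 1152 CPM in untreated liver and to 230 and 200 CPM in treated liver. The large subunit genes without Mrpl33 summed to 1796 and 2328 CPM in untreated liver and to 494 and 429 CPM in treated liver. The groups did not overlap for either sum. Of 77 tested members 73 fell and 1 rose, against 64.1% of all 16719 tested genes called in either direction (36.3% lower and 27.8% higher). The median log2 fold change was -2.61 over the small subunit genes and -2.13 over the large subunit genes, beside -0.29 over all tested genes.

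**Figure D1:**
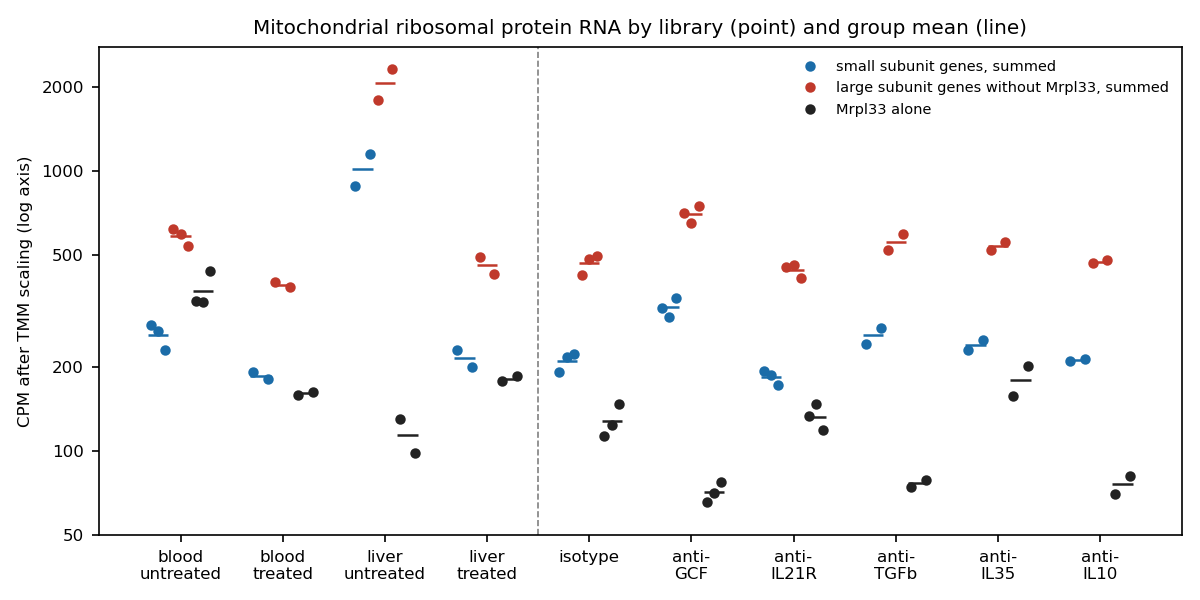
Summed CPM after TMM scaling (log axis) of the small subunit genes, of the large subunit genes without Mrpl33, and the CPM of Mrpl33 alone, in each library (points) with group means (lines); the dashed line separates the 2 tables, which were scaled separately. Both sums are highest in untreated liver, where Mrpl33 is at 98.2 and 130 CPM, and Mrpl33 is highest in untreated blood at 340 to 438 CPM.

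The largest fall was that of Mrpl38, a large subunit protein of the central protuberance found only in mitochondria. It was at 65.6 and 96.0 CPM in untreated liver and at 1.98 and 1.55 CPM in treated liver. This is a log2 fold change of -5.52 ± 0.26 (SE), 45.8-fold lower (edgeR adjusted p = 7.48e-07).

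Mrps2, a small subunit protein with a bacterial counterpart, was at 45.7 and 61.5 CPM in untreated and 2.40 and 1.70 CPM in treated liver (log2 -4.71 ± 0.36, adjusted p = 6.81e-06). Mrpl12, a protein of the large subunit stalk that has also been described to bind the mitochondrial RNA polymerase, was at 112 and 150 CPM and then at 5.78 and 4.73 CPM (log2 -4.64 ± 0.38, adjusted p = 9.46e-06). Mrps27, a small subunit protein with pentatricopeptide repeats, was at 25.5 and 29.1 CPM and then at 1.45 and 1.01 CPM (log2 -4.47 ± 0.33, adjusted p = 5.12e-06). In none of these 4 genes did the groups overlap. By adjusted p, Mrpl38 was followed by Mrps31 (-3.78), Mrpl14 (-2.92), Mrps27, Mrps22 (-3.43), Mrps10 (-4.18), Mrpl50 (-3.91) and Mrps7 (-4.04) on the log2 scale.

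Mrpl33 was the only member that rose. It was at 130 and 98.2 CPM in untreated and at 177 and 185 CPM in treated liver, a log2 fold change of 0.67 ± 0.19 (SE) with adjusted p = 0.0129. Without treated liver replicate 2 the adjusted p was 0.0661. Mrpl48 was closest to Mrpl33 among the called members that fell, with 17.3 and 20.1 CPM in untreated and 12.4 and 11.9 CPM in treated liver (log2 -0.62 ± 0.20, adjusted p = 0.0237), a call lost under RLE and upper-quartile scaling (adjusted p = 0.0618 and 0.142), in a fit of only these groups (0.0847) and without any 1 of the libraries of either group (0.0878 to 0.290). Mrps15 (log2 -0.62 ± 0.33, adjusted p = 0.127), Mrpl19 (-0.29 ± 0.20, adjusted p = 0.241) and Mrpl45 (-0.63 ± 0.30, adjusted p = 0.0906) did not pass. Mrps15 passed without untreated blood replicate 3 (adjusted p = 0.00936).

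Members with other roles were also lower. Mrpl58, a peptidyl-tRNA hydrolase built into the large subunit that rescues stalled ribosomes, had a log2 fold change of -2.16. Mrps12, a protein of the decoding centre, had -2.87. Mrps30 (-3.01) and Mrps18a (-3.00) carry small subunit symbols but sit in the large subunit in resolved structures. Mrps36 (-1.55), now known as a component of the 2-oxoglutarate dehydrogenase complex and not of the ribosome, also fell. Genes with bacterial counterparts (42 of 45 lower, median -2.28) and those found only in mitochondria (30 of 31 lower, median -2.45) had like medians.

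The rest of the mitochondrial translation pathway was lower in the same comparison. All 14 tested translation factors fell, with a median log2 fold change of -2.39. Among them were Tufm, the elongation factor that brings aminoacyl-tRNA to the ribosome (-4.08 ± 0.30), Gfm1, a translocase (-3.13 ± 0.27), Taco1, a translational activator of Mt-co1 (-3.09 ± 0.23), and Lrpprc, which stabilises mitochondrial messenger RNA (-3.98 ± 0.32). All 17 mitochondrial aminoacyl-tRNA synthetase genes fell, with Ears2 at -7.63 ± 0.61. Of 23 genes of ribosome assembly and rRNA modification 17 fell and 1 rose, led by Rcc1l at -5.47 ± 0.35. Of 10 genes of mitochondrial DNA transcription and replication 6 fell and 1 rose. Among 8 regulators, Nrf1, which encodes nuclear respiratory factor 1, was at 19.6 and 17.5 CPM in untreated and at 41.2 and 42.9 CPM in treated liver and rose (log2 1.18 ± 0.15), and Gabpa, a subunit of GABP, fell (-0.71 ± 0.16). Gabpb1, of the other GABP subunit, went the other way, with 24.4 and 23.3 CPM in untreated and 31.0 and 33.5 CPM in treated liver. Levels of Esrra and Yy1 were also higher in both treated liver libraries, and those of Ppargc1b, Pprc1 and Myc were lower. Cytosolic ribosomal protein genes (70 of 86 lower, 4 higher, median -1.45) and subunits of oxidative phosphorylation (71 of 77 lower, 1 higher, median -1.90) were also lower. The summed level of the mitochondrial ribosomal protein genes was 22.1% and 23.8% of that of the oxidative phosphorylation genes in untreated liver and 24.9% and 25.5% in treated liver. Of the hepatocyte genes 16 of 17 fell, of the neutrophil genes 18 of 20 rose, and of 30 cell cycle genes 27 rose and 1 fell between the same libraries. Of 12 B and plasma cell genes 7 fell (3546 and 3670 CPM summed in untreated and 809 and 696 CPM in treated liver). Of 15 T and NK cell genes 9 fell and 1 rose, while their sum was higher in treated liver (156 and 91.3 CPM and then 257 and 276 CPM). Of 9 granulocyte precursor genes 8 rose (40.12 and 48.05 CPM and then 409 and 274 CPM). The part of all these lists in the lower level of the mitochondrial ribosomal protein genes was not tested. With other scalings the all-gene median moved from -0.29 (TMM) to -0.18 (RLE) and -0.02 (upper quartile), and that of the members from -2.40 to -2.29 and -2.12.

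**Figure D2:**
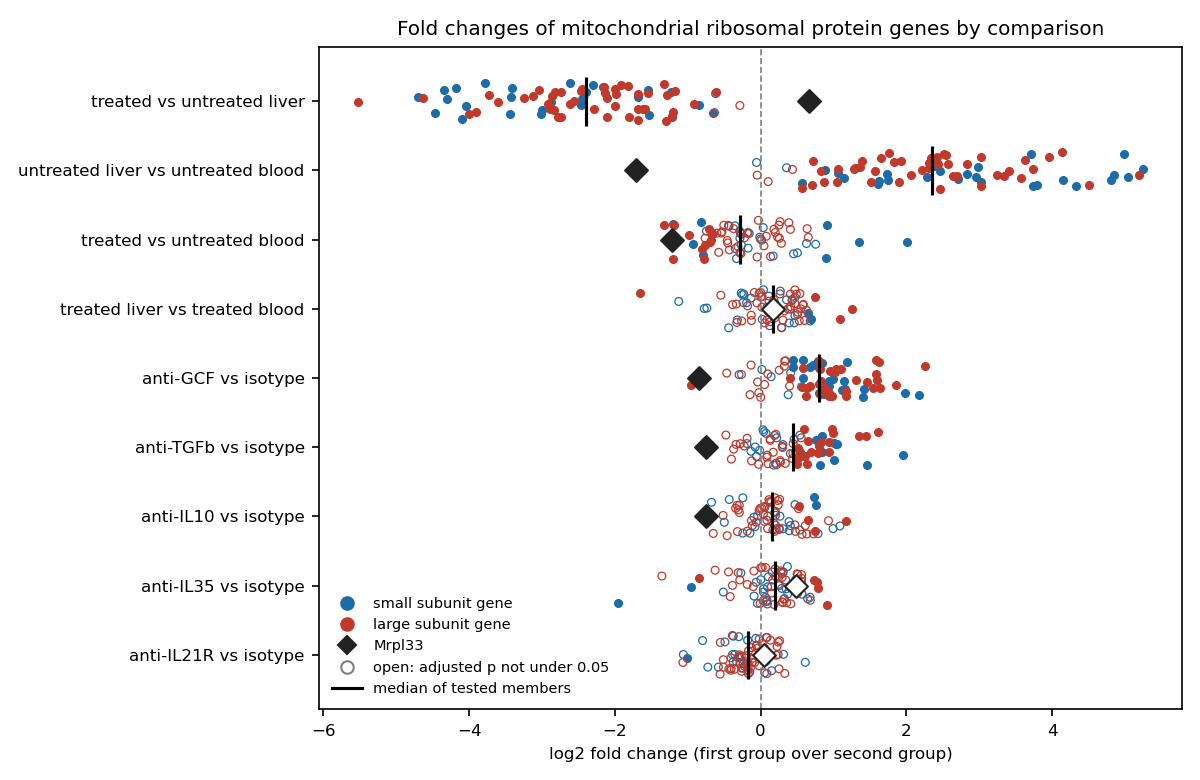
Log2 fold change of every tested member in the 9 comparisons of a pair of groups, with small subunit genes in blue, large subunit genes in red, Mrpl33 as a diamond and the median of the members as a line; filled symbols passed the test. Mrpl33 passed the test on the other side of zero from the median in treated against untreated liver, untreated liver against untreated blood, anti-GCF, anti-TGFb and anti-IL10.

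Blood neutrophils of treated and untreated mice differed much less. The small subunit sum was 230 to 283 CPM in untreated and 191 and 181 CPM in treated blood, and the large subunit sum without Mrpl33 was 540 to 624 CPM and then 400 and 385 CPM, without overlap. Of 77 tested members 4 rose and 17 fell (33.6% of all genes were called, 17.4% higher and 16.2% lower), and the median was -0.26 over the small and -0.34 over the large subunit genes. The number called was 8 without treated blood replicate 2, 5 without replicate 3, and 17 in a fit without the untreated liver libraries.

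All 4 members that rose belong to the small subunit and have bacterial counterparts. Mrps6 was at 0.413, 0.359 and 0.206 CPM in untreated and at 1.26 and 1.43 CPM in treated blood (log2 2.00 ± 0.41, adjusted p = 0.00629), a low level throughout. Mrps5 was at 0.578, 0.939 and 0.578 CPM and then at 1.93 and 1.66 CPM (log2 1.34 ± 0.31, adjusted p = 0.0100). Mrps2 (0.92 ± 0.30) and Mrps10 (0.89 ± 0.28) followed, and these 2 lost their call in a fit of only the groups compared (adjusted p = 0.109 and 0.107) and without either treated blood library (0.113 to 0.208). Without treated blood replicate 3 the adjusted p of Mrps6 was 0.0556 and that of Mrps5 was 0.0525, and without replicate 2 that of Mrps5 was 0.0732.

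Among those that fell were the members with the highest levels. Mrpl33 was at 344, 340 and 438 CPM in untreated and at 159 and 162 CPM in treated blood (log2 -1.22 ± 0.18, adjusted p = 0.00161). Mrpl10, a protein at the base of the large subunit stalk, was at 92.6, 85.2 and 90.9 CPM and then at 38.8 and 40.1 CPM (log2 -1.18 ± 0.13). Mrpl14, which lies at the face that meets the small subunit, was at 27.3, 24.6 and 30.7 CPM and then at 10.7 and 11.4 CPM (log2 -1.32 ± 0.19, adjusted p = 0.00139). Mrpl43 (-1.21 ± 0.16) and Mrps24 (-1.20 ± 0.18) fell by like amounts, and the groups of these genes did not overlap. Of the other lists, 4 of 14 translation factors and 3 of 17 aminoacyl-tRNA synthetase genes rose and none of either fell. Of the cytosolic ribosomal protein genes 39 of 86 fell, and of the oxidative phosphorylation genes 49 of 77 fell, with none higher in either list. Between the same libraries 26 of 30 cell cycle genes rose, and all 9 platelet genes rose (325 to 662 CPM summed in untreated and 1750 and 1786 CPM in treated blood). Of 10 erythroid genes 8 rose (33.3 to 234 CPM and then 447 and 3313 CPM), and of 15 T and NK cell genes 6 rose and 1 fell (202 to 367 CPM and then 502 and 504 CPM). Of the Kupffer cell and macrophage genes 8 of 12 rose, while their sum was 529 to 924 CPM in untreated and 653 and 680 CPM in treated blood. The neutrophil genes summed to 124989 to 295681 CPM in untreated blood and to 102271 and 99130 CPM in treated blood. The part of these lists in the differences was not tested.

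Liver and blood neutrophils of treated mice differed in the fewest members within that table. Of 77 tested members 5 were higher in liver and 1 was lower, whereas 21.3% of all genes were called (9.71% higher and 11.6% lower). Mrpl52, a large subunit protein found only in mitochondria, was at 2.96 and 2.08 CPM in treated liver and at 8.42 and 7.40 CPM in treated blood (log2 -1.65 ± 0.27, adjusted p = 0.00288), and it kept this call whichever library was left out. Mrpl45, which lies at the tunnel exit and faces the inner membrane, was at 24.4 and 24.4 CPM in liver and at 10.35 and 10.14 CPM in blood (log2 1.25 ± 0.31, adjusted p = 0.0184). Mrpl41 (1.09 ± 0.21), Mrpl51 (0.74 ± 0.21), Mrps9 (0.69 ± 0.21) and Mrps18c (0.66) were the others. Mrpl45, Mrpl51 and Mrps9 did not pass without any 1 of the 4 libraries compared (adjusted p 0.0852 to 0.232), and Mrpl41 did not without treated blood replicate 3 (0.0875). Mrps6 (-1.12 ± 0.43), Mrps2 (-0.77 ± 0.33) and Mrps18b (-0.74 ± 0.43) did not pass, nor did Mrpl33 (0.17 ± 0.19, 95% interval -0.20 to 0.55). The count of calls was 1 to 20 when single libraries were left out, with 20 without untreated blood replicate 3, 2 without either treated liver library or treated blood replicate 2, and 1 without treated blood replicate 3. It was 27 in a fit of only the 2 groups, where Mrps6, Mrps2 and Mrps18b passed (adjusted p = 0.0377, 0.0277 and 0.0274). Between these libraries 28 of 30 cell cycle genes were higher in liver. The neutrophil genes summed to 185303 and 188436 CPM in treated liver and to 102271 and 99130 CPM in treated blood. The granulocyte precursor genes summed to 409 and 274 CPM in liver and to 79.0 and 82.6 CPM in blood. Of the hepatocyte genes 13 of 17 were higher and none was lower by the test, while their sum was 3107 and 3228 CPM in liver and 3366 and 3517 CPM in blood (269 and 293 CPM against 321 and 339 CPM without Hp). Lower in liver were 12 of 15 T and NK cell genes, 10 of 12 B and plasma cell genes, 8 of 12 Kupffer cell and macrophage genes (218 and 221 CPM summed, against 653 and 680 CPM in blood) and all 9 platelet genes, while 1 T and NK cell gene and 1 B and plasma cell gene were higher. The part of these lists was not tested.

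Without therapy, liver and blood neutrophils differed for nearly all members. Of 77 tested members 71 were higher in liver and 1 was lower (64.3% of all genes were called, 35.6% higher and 28.7% lower), with medians of 2.70 for the small and 2.26 for the large subunit genes and 0.10 over all genes. This comparison shares the untreated liver libraries with the first, and the values above for hepatocyte and neutrophil genes apply to it in the same way. Mrps5 was at 22.6 and 31.1 CPM in untreated liver and at 0.578 to 0.939 CPM in untreated blood (log2 5.24 ± 0.31, adjusted p = 9.49e-07). Mrpl38 (5.19 ± 0.22), Mrps27 (5.03 ± 0.29) and Mrps6 (4.98 ± 0.41) followed. Mrpl33 was 3.29-fold lower in liver (log2 -1.72 ± 0.19, adjusted p = 3.92e-05). Mrps21 was at 43.4 and 50.5 CPM in liver and 43.0, 47.0 and 56.5 CPM in blood (log2 -0.06, 95% interval -0.37 to 0.26), and the groups overlapped. Mrpl43 (interval -0.35 to 0.26), Mrpl10 (-0.15 to 0.36), Mrps15 (-0.23 to 0.94) and Mrpl4 (0.07 to 0.80, adjusted p = 0.0649) did not pass either. Over the 4 groups of this table, 74 of the 77 tested members had their highest mean in untreated liver; Mrpl33, Mrps21 and Mrpl43 had it in untreated blood.

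The treatment effect differed between liver and blood for 63 of the 77 tested members, against 54.7% of all genes (23.3% in the positive and 31.4% in the negative direction). For 62 the effect was more negative in liver and for Mrpl33 it was more positive, 1.89 ± 0.27 on the log2 scale (adjusted p = 0.000371). Mrps6 (-6.11 ± 0.60), Mrps5 (-5.68 ± 0.45), Mrps2 (-5.63 ± 0.45) and Mrpl38 (-5.52 ± 0.32) had the largest differences. The first 3 of these fell in liver and rose in blood. For Mrpl10, which was lower after treatment in both tissues by -1.20 and -1.18, the difference was -0.02 (95% interval -0.39 to 0.36). For Mrps21 the interval was -0.30 to 0.64 and for Mrps15 -0.84 to 0.91.

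The remaining comparisons ask how blocking antibodies changed liver neutrophils of treated mice, each against the same isotype control libraries. Under anti-GCF, most members were higher. The small subunit sum was 191 to 222 CPM with the isotype antibody and 302 to 353 CPM with anti-GCF, and the large subunit sum without Mrpl33 was 427 to 498 CPM and then 654 to 751 CPM. Of 76 tested members 54 rose and 2 fell, with 57.8% of all 16812 tested genes called (31.6% higher and 26.3% lower). The median log2 fold change was 0.80 for the small subunit genes, 0.81 for the large subunit genes and 0.11 for all genes. The median of all genes was 0.02 with RLE and -0.02 with upper-quartile scaling, where that of the members was 0.72 and 0.68.

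Mrpl52 was at 2.91, 2.53 and 4.99 CPM with the isotype antibody and at 16.0, 13.8 and 20.1 CPM with anti-GCF, 4.79-fold higher (log2 2.26 ± 0.31, adjusted p = 4.89e-05). Mrps6, at 0.834 to 1.64 CPM and then 4.32 to 6.76 CPM, rose by 2.17 ± 0.32 on the log2 scale, and Mrps27, at 1.18 to 1.62 CPM and then 4.03 to 6.90 CPM, by 1.99 ± 0.33. Among the large subunit genes the smallest adjusted p-values were those of Mrpl42 (log2 1.63 ± 0.17), Mrpl3 (1.59 ± 0.18), Mrpl11 (1.86 ± 0.21), Mrpl54 (1.58 ± 0.19) and Mrpl28 (1.46 ± 0.18), and among the small subunit genes those of Mrps2 (1.42 ± 0.17), Mrps5 (1.41 ± 0.19) and Mrps6. Mrpl42 shares 96.3% identity with the processed pseudogene Gm6419, which held 0 to 8 counts per library here.

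Mrpl45 and Mrpl33 were the 2 members that fell. Mrpl45 was at 35.4, 35.7 and 33.3 CPM with the isotype antibody and at 18.7, 17.1 and 17.9 CPM with anti-GCF (log2 -0.96 ± 0.21, adjusted p = 0.00178). Mrpl33 was at 113, 124 and 147 CPM and then at 65.4, 70.7 and 77.4 CPM (log2 -0.85 ± 0.15, adjusted p = 0.000304). For both, all anti-GCF libraries lay below all isotype libraries. Of the pathway, 12 of 13 translation factors rose and 1 fell, with Lrpprc at 1.69 ± 0.18, Tsfm at 1.87 ± 0.21 and Gfm1 at 1.26 ± 0.14, and 10 of 17 aminoacyl-tRNA synthetase genes rose and 1 fell. Of the assembly genes 14 of 23 rose and 3 fell, with Rcc1l at 2.21 ± 0.30 and the pseudouridine synthase Trub2 at -1.51 ± 0.18. Of the 9 regulators 3 rose and 3 fell. Ppargc1b (2.58 ± 0.36) and Pprc1 (0.77 ± 0.22), which are coactivators of the PGC-1 family, and Myc (1.10 ± 0.34) rose, while Gabpb1 (-1.42 ± 0.13), Yy1 (-0.85 ± 0.13) and Nrf1 (-0.38 ± 0.15) fell. Cytosolic ribosomal protein genes (45 of 82 higher, 13 lower) and oxidative phosphorylation genes (32 of 79 higher, 8 lower, median 0.27) moved less uniformly. All 12 Kupffer cell and macrophage genes rose, 9 of 12 B and plasma cell genes rose and 18 of 20 neutrophil genes and 20 of 30 cell cycle genes fell between the same libraries. The hepatocyte genes without Hp summed to 409 to 461 CPM, against 113 to 357 CPM with the isotype antibody. With Hp the sums were lower (1420 to 1434 CPM against 1826 to 2851 CPM). The granulocyte precursor genes summed to 70.2 to 87.1 CPM, against 252 to 280 CPM. The part of these lists in these values was not tested.

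**Figure D3:**
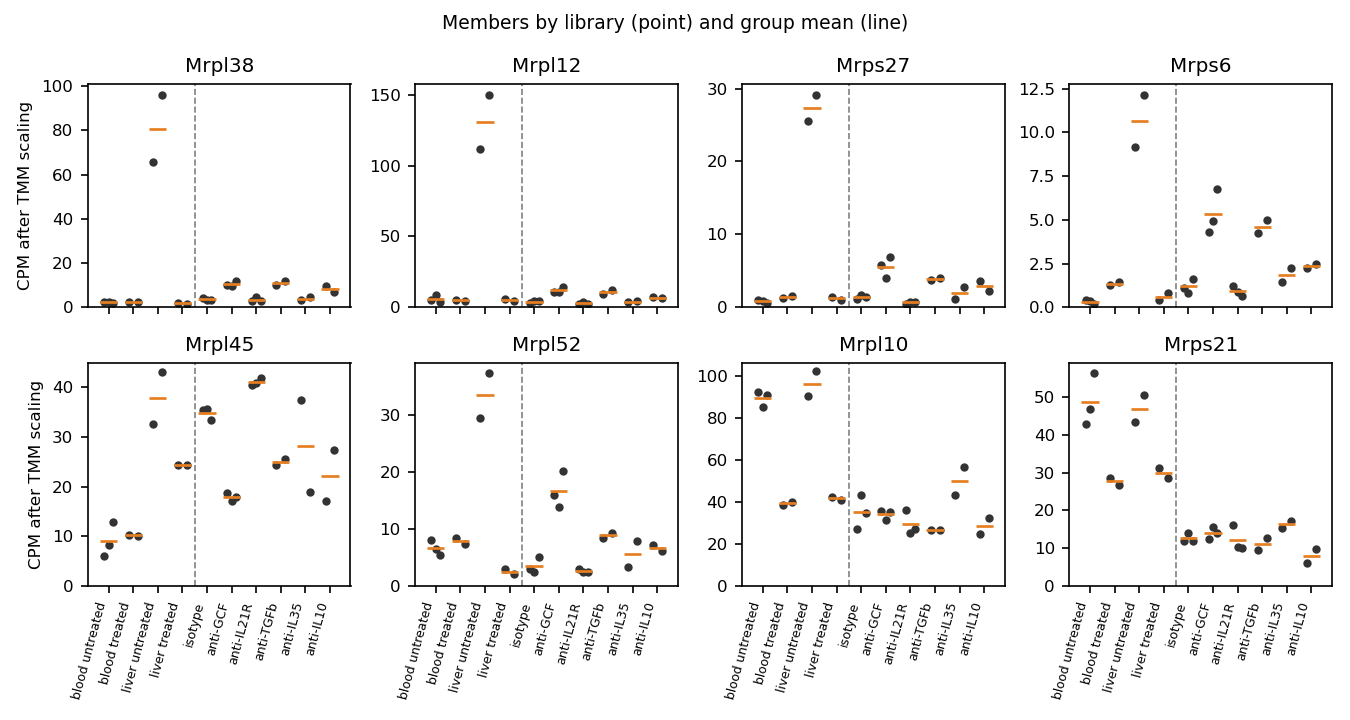
CPM after TMM scaling of 8 members in each library (points) with group means (lines), in the groups of the blood and liver table (left of the dashed line) and of the antibody table (right). Mrpl38, Mrpl12 and Mrps27 are high in untreated liver; Mrps6 and Mrpl52 are also raised with anti-GCF; Mrpl45 is at 17.1 to 18.7 CPM with anti-GCF and 33.3 to 35.7 CPM with the isotype antibody.

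With anti-TGFb, 30 of 76 tested members rose and 1 fell (27.6% of all genes were called, 17.5% higher and 10% lower), with medians of 0.43 for the small and 0.44 for the large subunit genes and 0.01 over all genes. Without anti-TGFb replicate 2 the number called was 6, and without replicate 1 it was 19. Mrps6 was at 4.23 and 4.98 CPM against 0.834 to 1.64 CPM with the isotype antibody (log2 1.96 ± 0.34, adjusted p = 0.00128). Mrpl38 was at 10.24 and 11.6 CPM against 3.05 to 4.29 CPM (1.61 ± 0.27), and Mrps27 at 3.71 and 4.01 CPM (1.46 ± 0.36). Mrpl33 was the member that fell, at 74.4 and 78.6 CPM (log2 -0.74 ± 0.17, adjusted p = 0.00626), and without either anti-TGFb library it no longer passed (adjusted p = 0.0696 and 0.0541), nor did Mrps27 without replicate 2 (0.0694). Mrpl45 (-0.48 ± 0.24) and Mrpl10 (-0.40 ± 0.22) did not pass. Of the translation factors 7 of 13 rose and none fell, as did 8 of 17 aminoacyl-tRNA synthetase genes, whereas 7 of 79 oxidative phosphorylation genes rose and 3 fell. In these libraries 13 of 15 T and NK cell genes rose (949 and 982 CPM summed, against 325 to 453 CPM with the isotype antibody) and 7 of 20 neutrophil genes fell (84550 and 91074 CPM against 145558 to 172363 CPM). The hepatocyte genes without Hp summed to 612 and 750 CPM, against 113 to 357 CPM with the isotype antibody. With Hp these sums overlapped (1989 and 2217 CPM against 1826 to 2851 CPM). The granulocyte precursor genes summed to 93.6 and 99.3 CPM, against 252 to 280 CPM. The part of these lists was not tested.

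With anti-IL10, 6 members rose and 1 fell (17.6% of all genes were called, 10.6% higher and 6.98% lower). Those that rose were Mrpl38 (log2 1.17 ± 0.27, adjusted p = 0.0121), Mrps2 (0.76), Mrpl12 (0.75), Mrps5 (0.73), Mrpl54 (0.65) and Mrpl37 (0.53). Mrpl38 was at 9.39 and 6.71 CPM, above the isotype libraries. Mrpl33, at 70.4 and 81.3 CPM, again was the member that fell (-0.75 ± 0.17, adjusted p = 0.0111). Mrps27 (1.09 ± 0.36), Mrps6 (0.99 ± 0.34), Mrps21 (-0.67 ± 0.25) and Mrpl45 (-0.65 ± 0.24) did not pass. With DESeq2 these did pass (adjusted p = 0.0355, 0.0428, 0.0431 and 0.0403). The count was 3 without isotype replicate 2 or either anti-TGFb library, 4 without anti-GCF replicate 1 or 2, and 13 without either anti-IL35 library. No member was called without anti-IL10 replicate 1, where the adjusted p was 0.196 for Mrpl38 and 0.165 for Mrpl33. The T and NK cell genes summed to 757 and 736 CPM (11 of 15 higher, 1 lower) and the neutrophil genes to 48722 and 100978 CPM (6 of 20 lower). The hepatocyte genes without Hp summed to 390 CPM in both libraries, against 113 to 357 CPM with the isotype antibody. With Hp these sums overlapped (1566 and 2408 CPM against 1826 to 2851 CPM). The granulocyte precursor genes summed to 93.1 and 124 CPM, against 252 to 280 CPM. The part of these lists was not tested.

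With anti-IL35, 4 members rose and 3 fell (9.33% of all genes were called, 4.81% higher and 4.51% lower). Mrps18b, a small subunit protein of the S18 family, was at 0.635 and 0.538 CPM against 2.67, 1.87 and 2.38 CPM with the isotype antibody, 3.90-fold lower (log2 -1.96 ± 0.33, adjusted p = 0.00466). Mrps30 (-0.96 ± 0.24) and Mrpl46 (-0.84 ± 0.20) also fell, and Mrpl1 (0.91 ± 0.23), Mrpl36 (0.79 ± 0.18), Mrpl34 (0.78 ± 0.22) and Mrpl28 (0.74) rose. Mrpl33 was at 157 and 201 CPM, above the isotype libraries, without passing (0.49 ± 0.16, adjusted p = 0.0777), though it passed with DESeq2 (0.0424). The anti-IL35 libraries differed in Kupffer cell and macrophage genes, with 317 CPM in replicate 1 and 2501 CPM in replicate 2. Without anti-IL35 replicate 2 no member was called (Mrps18b adjusted p = 0.0584), without replicate 1 there were 18, and a link to these genes was not tested. Without isotype replicate 1 or 3 the count was 2 and 4, and in a fit of only the 2 groups it was 0 (Mrps18b adjusted p = 0.212).

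With anti-IL21R, 1 member was called (2.23% of all genes were, 1.08% higher and 1.15% lower). Mrps5 was at 1.71, 1.29 and 1.18 CPM against 2.79, 3.01 and 2.57 CPM with the isotype antibody (log2 -1.01 ± 0.21, adjusted p = 0.0374), a call lost without isotype replicate 2 or 3, without anti-IL21R replicate 2 or 3, without any 1 of the anti-GCF or anti-TGFb libraries (adjusted p from 0.0562 to 0.1501) and without all anti-GCF libraries (0.0902). The count of called members was 10 without isotype replicate 1 and 6 and 5 without an anti-IL35 library. Mrpl22 (-1.07 ± 0.30), Mrps27 (-1.06 ± 0.36), Mrps30 (0.61 ± 0.21), Mrpl41 (0.33 ± 0.18), Mrps22 (0.31 ± 0.27) and Mrpl33 (0.05 ± 0.15, interval -0.24 to 0.34) did not pass. Mrpl22 passed with DESeq2 (adjusted p = 0.0266), and Mrps30 passed without isotype replicate 1 (0.00507). Of 30 cell cycle genes 9 were lower with anti-IL21R (547 to 594 CPM summed, against 722 to 851 CPM with the isotype antibody), as were 7 of 10 erythroid genes (115 to 145 CPM summed, against 306 to 2158 CPM) and 1 of 9 granulocyte precursor genes (123 to 164 CPM summed, against 252 to 280 CPM). None of 12 B and plasma cell genes passed, although their sums did not overlap (1547 to 1755 CPM against 2611 to 2895 CPM), and none of 12 Kupffer cell and macrophage genes passed (161 to 211 CPM against 239 to 674 CPM). The part of these lists was not tested. Across the 6 antibody groups, 54 of 76 members had their highest mean with anti-GCF and 44 their lowest with anti-IL21R.

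Small and large subunit RNA were compared within each library as the ratio of their summed CPM. The ratio was 0.292, 0.288 and 0.235 in untreated blood, 0.460 and 0.475 in untreated liver, 0.343 and 0.326 in treated liver and 0.342 and 0.330 in treated blood. Untreated liver was above, and untreated blood below, all other libraries of that table. In the antibody table it was 0.344 to 0.355 with the isotype antibody, 0.417 to 0.426 with anti-GCF, 0.405 and 0.409 with anti-TGFb, 0.388 and 0.380 with anti-IL10, 0.336 and 0.329 with anti-IL35 and 0.308 to 0.328 with anti-IL21R. Mrpl33 made up 35.6% to 44.8% of the large subunit sum in untreated blood, 4.05% and 6.73% in untreated liver, 26.4% and 30.1% in treated liver and 28.4% and 29.6% in treated blood. In the antibody table its share was 20.4% to 22.8% with the isotype antibody, 8.44% to 9.75% with anti-GCF, 11.7% and 12.5% with anti-TGFb, 13.1% and 14.5% with anti-IL10, 23.1% and 26.4% with anti-IL35 and 22.2% to 24.1% with anti-IL21R. The anti-IL21R libraries had the lowest ratios of that table, while their Mrpl33 share overlapped that of the isotype libraries.

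With Mrpl33 left out, the ratio was 0.405 to 0.495 over the 24 libraries. It was 0.425 to 0.453 in untreated blood, 0.494 and 0.495 in untreated liver, 0.466 and 0.466 in treated liver and 0.478 and 0.469 in treated blood. In the antibody table it was 0.445 to 0.447 with the isotype antibody, 0.455 to 0.470 with anti-GCF, 0.463 in both libraries with anti-TGFb, 0.445 and 0.447 with anti-IL10, 0.437 and 0.447 with anti-IL35 and 0.405 to 0.423 with anti-IL21R. For the symbols used, untreated liver thus stayed above the other libraries of its table by a smaller margin, and the anti-IL21R libraries stayed below the isotype libraries. Neither sum holds ribosomal proteins with other symbols (Dap3, Ptcd3, Chchd1, Aurkaip1 and Gadd45gip1). In untreated blood Aurkaip1, a small subunit protein, was at 60.3, 58.1 and 71.7 CPM, beside small subunit sums of 283, 269 and 230 CPM. In untreated liver it was at 77.3 and 89.3 CPM, beside 886 and 1152 CPM. The order of the groups may therefore differ with these genes added. The anti-IL10 libraries, above the isotype libraries with all genes, lay close to the isotype values without Mrpl33. This ratio without Mrpl33 was chosen after the values had been seen, and sums of CPM depend on transcript length, so a ratio below 1 does not compare numbers of transcripts.

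**Figure D4:**
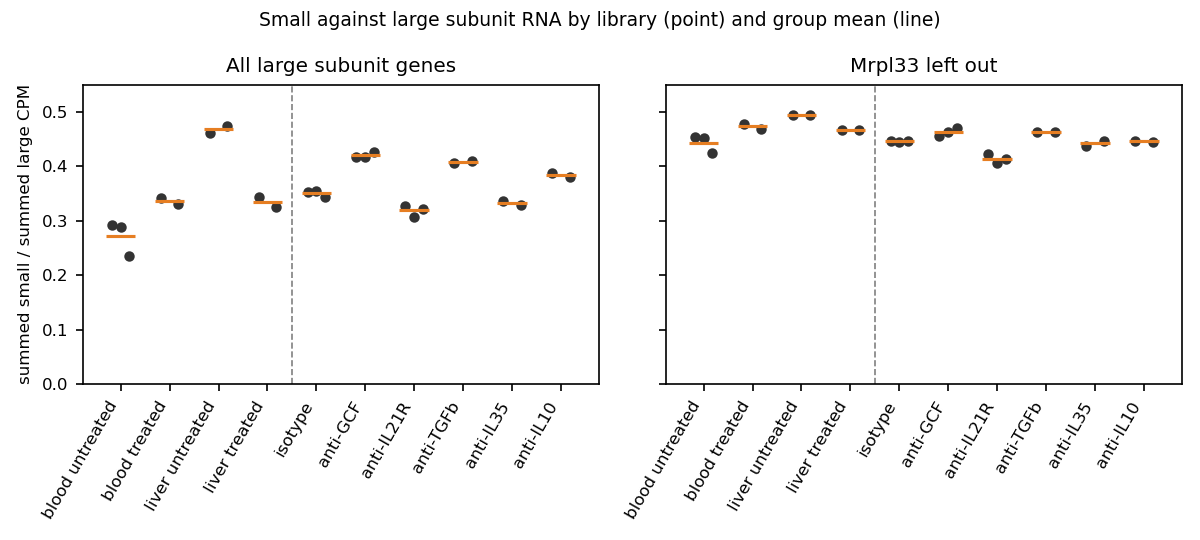
Ratio of summed small subunit to summed large subunit CPM in each library (points) with group means (lines), with all large subunit genes (left panel) and without Mrpl33 (right panel); the dashed line separates the 2 tables. The range over all libraries is 0.235 to 0.475 on the left and 0.405 to 0.495 on the right.

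Mrpl33 levels lay beside the neutrophil gene sum in a partly similar order across groups. Mrpl33 had its lowest group mean with anti-GCF (65.4 to 77.4 CPM, neutrophil genes 23839 to 31270 CPM). The levels with anti-TGFb (74.4 and 78.6 CPM, neutrophil genes 84550 and 91074 CPM) overlapped these. So did those with anti-IL10 (70.4 and 81.3 CPM, neutrophil genes 48722 and 100978 CPM). Mrpl33 was highest in untreated blood, where replicate 3 had both the highest Mrpl33 level (438 CPM) and the highest neutrophil sum (295681 CPM). In treated blood, however, Mrpl33 was at 159 and 162 CPM with neutrophil genes at 102271 and 99130 CPM, and in treated liver it was at 177 and 185 CPM with 185303 and 188436 CPM. In untreated liver it was at 130 and 98.2 CPM with only 34840 and 36907 CPM of the neutrophil genes. The 2 anti-IL35 libraries went in the opposite order, with Mrpl33 at 157 and 201 CPM and neutrophil genes at 206181 and 136024 CPM. The levels of the 2 tables were set by separate scaling, and the part of the neutrophil share of the cells in the Mrpl33 level was not tested.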

How the data were processed

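Per the labels' protocols, the RNeasy Mini kit gave the RNA and TruSeq Stranded mRNA the libraries. Tools named, without roles, in the submitters' processing notes are STAR 2.5.3a, Bowtie2 2.2.5, Partek and DESeq2, with build mm10; the counting tool, annotation and use of strand are not given in the sources used here. The authors deposited raw counts per gene for 15 antibody libraries and, for 9 blood and liver libraries, expected counts (44.4% of values not whole), which were rounded. Neither table was scaled.

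The tables were analysed separately. Genes kept by filterByExpr were scaled by TMM and tested with edgeR 4.0.16 quasi-likelihood F tests (R 4.3.3, robust, all libraries of a table, group as the only term), with Benjamini-Hochberg adjustment over all tested genes and a threshold of 0.05. SEs were obtained as absolute log2 fold change over the root of F. The 95% intervals used the normal quantile with these SEs, so they are narrower than intervals that allow for the few residual degrees of freedom. The fit was tested on simulated counts. Alternatives used DESeq2 1.42.0 and limma 3.58.1. Pseudogene copies were found with BLAST+ 2.17.0 (at least 90% identity over 50%).

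Members and gene lists were chosen with earlier results of these data known. Named were, per comparison, the 4 (antibody table: 3) tested members farthest above and below the members' median with at least 1 CPM, those called against the majority, the highest per kb, the smallest adjusted p, and 8 fixed genes (Mrpl12, Mrpl58, Mrps30, Mrps18a, Mrps36, Mrps12, Mrps6 and Mrpl33).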

Additional observations from a re-analysis of the deposited data

Results flagged for a closer look

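The treatment effect differed between liver and blood for 63 of the 77 tested mitochondrial ribosomal protein genes, by the test of the difference itself. Of all genes 54.7% were called by the same test. As above, treatment cannot be told apart from any difference that goes with the library number ranges. Alb was at 4861 and 5577 CPM in the untreated liver libraries, and the part of hepatocyte RNA was not tested. Among the named members the difference, liver effect minus blood effect on the log2 scale, was -6.11 for Mrps6, -5.68 for Mrps5, -5.63 for Mrps2 and -5.52 for Mrpl38, and 1.89 for Mrpl33. All groups held 2 or 3 libraries, so no single library was tested as standing apart.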

How the results depend on the processing

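Counts of called members changed by no more than 1.5 times under every alternative for treated against untreated liver (69 to 76), untreated liver against untreated blood (65 to 73) and the difference of treatment effects (55 to 66). With the added condition of a log2 change past 1 in size, the counts were 8 for treated against untreated blood, 3 for treated liver against treated blood, 23 for anti-GCF, 9 for anti-TGFb, 1 for anti-IL35 and 1 for anti-IL10. Treated liver against treated blood gave 13 with DESeq2 and 27 when only the groups compared were fitted. Anti-IL21R gave 4 with DESeq2 (which called 1578 of all genes, against 375 with edgeR), 2 with at least 5 CPM in 2 libraries, and 0 when only the groups compared were fitted or the anti-GCF libraries were left out. Anti-IL35 gave 12 with DESeq2, 0 (groups compared) and 2 (without anti-GCF). Anti-IL10 gave 15 with DESeq2, 12 with limma-voom, 3 without a filter, 1 (groups compared) and 3 (without anti-GCF). Leaving out each library in turn gave 48 to 58 for anti-GCF, 6 to 37 for anti-TGFb, 0 to 13 for anti-IL10, 0 to 18 for anti-IL35, 0 to 10 for anti-IL21R, 5 to 29 for treated against untreated blood, 1 to 20 for treated liver against treated blood, 70 to 76 for treated against untreated liver, 65 to 73 for untreated liver against untreated blood and 55 to 66 for the difference of treatment effects. Where 1 library was left in a group, its spread was taken from the other groups. Apart from the smaller sample number, the cause was not tested.

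Whether replicate numbers pair the libraries could not be decided. By title number, deviations of same-numbered libraries from their group means correlated at -0.07 to 0.06 in the first table. In the second the range was -0.30 to 0.29, with 10 of 33 pairs above 0.1. In groups of 2 libraries the deviations mirror each other, so these correlations cannot exclude pairing. With the replicate block by title number the counts were 3 for treated liver against treated blood, 0 for anti-IL21R, 3 for anti-IL35 and 4 for anti-IL10, and with the block by library-name number 0 for anti-IL21R; the other counts changed by no more than 1.5 times.

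Of 47 called results of named members, 26 kept their call under every alternative, 21 lost it under at least 1 and none changed sign. Some results that had not passed were called under at least 1 alternative. Signs changed for 7 results that had not passed. For Mrpl10 the difference of treatment effects was 0.11 with RLE, 0.19 with upper-quartile scaling, 0.11 with DESeq2, 0.078 with the 5 CPM filter and -0.047 to 0.21 without single libraries. For Mrpl10 in untreated liver against untreated blood it was -0.12 with upper-quartile scaling, -0.030 with the 5 CPM filter and -0.12 to 0.13 without single libraries. For Mrps15 the difference of treatment effects was -0.012 with limma-voom, -0.22 with the replicate block by title number and -0.28 to 0.31 without single libraries. Mrps21 in untreated liver against untreated blood was at 0.0040 with that block and -0.30 to 0.060 without single libraries, and Mrpl43 at -0.22 to 0.063. Mrpl19 in treated against untreated liver was at -0.35 to 0.027 and Mrpl33 with anti-IL21R at -0.030 to 0.16 without single libraries. Counting Mrps30 and Mrps18a with the large subunit and leaving out Mrps36 lowered the subunit ratio in untreated liver from 0.468 to 0.401. Groups of 2 or 3 libraries limit what small differences can pass.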
